A study of Mus musculus with 25 samples.

Results

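The loops described here are pairs of 1 kb genome bins that were listed as H3K27ac contacts in control CD8+ T cells of 2 genotypes and dropped out of the lists of the same genotypes given IL-2. A pair was a member when the same bins, matched exactly, were listed in both the upstream-deletion control and the WT control and in neither IL-2 library of those genotypes. There were 1810 such loops, 3.76% of the 48158 loops that both controls listed and part of 121571 loops listed in any of 6 libraries. The members were chosen by their contact counts in the WT and upstream-deletion libraries, and they are called control-only loops below. The lists held no pair with fewer than 20 contacts, and in every listed pair both bins were flagged as peaks. An unlisted pair was thus below the listing limit or had a bin that was no peak, and it was not measured as 0.

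HiChIP captures pairs of DNA ends that lie near each other in the nucleus and enriches them with an antibody, here against H3K27ac, the histone mark of active promoters and enhancers. The 6 libraries came from splenic CD8+ T cells of C57BL/6J mice, stimulated through CD3 and CD28 for 2 days, rested for 4 h, and then either given IL-2 or left as controls, per the labels' protocols. The groups were an intron deletion of Il2ra with IL-2 and its control, an upstream deletion of Il2ra with IL-2 and its control, and WT with IL-2 and its control, with 1 library each. The labels call both deletion lines mutants and name no separate animals or cultures. The sources used here do not give the age of the mice, the deleted coordinates, the zygosity, or the dose and duration of IL-2.

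IL-2 binds a receptor whose alpha chain, CD25, is encoded by Il2ra, and signals through JAK kinases to STAT5, which acts at the promoters and enhancers of its target genes. In activated CD8+ T cells IL-2 drives growth and effector differentiation, while factors such as FOXO1, TCF1 and BACH2 are linked to the resting and memory-like states. Enhancers contact the promoters they act on in loops, and the H3K27ac-marked part of those loops is what the assay counts.

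The libraries differed in depth, with 38879 to 94922 listed loops each, and 28033 loops and 18580 anchor bins were listed in all 6. Contacts and coverage (the deposited read count of a bin) were scaled by the median ratio over those shared loops or bins. The intron-deletion pair of libraries stood apart. Over the shared loops its IL-2 and control contacts differed no more than counting noise allows, with a variance of 0.990 times that noise, against 1.2 to 3.03 times for the other pairs of libraries. In coverage the same pair had 3.26 times the counting variance, and the other pairs had 11.4 to 78.0 times. The unscaled coverage of all 18580 shared bins was higher in the intron-deletion IL-2 library than in its control, the deeper library of the pair. Every intron-deletion change given below rests on that pair. Why its libraries resembled each other was not tested, and neither were its treatment labels. With 1 library per genotype and treatment there is no replicate spread, and none of the 95% intervals given covers one. Intervals of coverage and contact ratios are for counting error alone. Those of shares and medians take loops or bins as independent draws. Neighbouring loops share reads and are not independent, so such intervals may be too narrow. All 7 CD8 T cell marker genes had a gene end in an anchor of a loop of both controls, against 1 of 8 B cell, 3 of 8 myeloid, 1 of 6 NK, 1 of 6 regulatory or CD4 T cell and 0 of 6 erythroid marker genes.

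The promoters that carried the most control-only loops were those of Ripor2, with 7 loops on its promoter bin, Kdm2b and Tnfaip3, with 6 each. Ripor2 encodes an inhibitor of a small GTPase, Kdm2b a histone demethylase that recognises unmethylated CpG-rich DNA, and Tnfaip3 the ubiquitin-editing enzyme A20, a brake on NF-kB signalling. The 250 bases before their starts are shown from RefSeq on GRCm38.p6, together with those of Cd3d, a subunit of the T cell receptor complex, and Nsmce1, a subunit of the SMC5/6 genome-maintenance complex, because these held the letters of a searched motif and 4 control-only loops each. Capitals mark the letters TGANTCA, the core recognised by AP-1, in the Tnfaip3 promoter, and TTCNNNGAA, the core recognised by STAT factors, in the Cd3d and Nsmce1 promoters. The windows lie at chr13:24638398-24638647 on the plus strand for Ripor2, chr5:122988508-122988757 on the minus strand for Kdm2b, chr10:19015411-19015660 on the minus strand for Tnfaip3, chr9:44981536-44981785 on the plus strand for Cd3d and chr7:125491444-125491693 on the minus strand for Nsmce1.
Ripor2: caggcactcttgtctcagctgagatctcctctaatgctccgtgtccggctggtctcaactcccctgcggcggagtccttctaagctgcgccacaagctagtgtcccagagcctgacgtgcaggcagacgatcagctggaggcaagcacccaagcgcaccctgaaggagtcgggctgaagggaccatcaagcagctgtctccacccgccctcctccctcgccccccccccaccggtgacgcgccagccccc
Kdm2b: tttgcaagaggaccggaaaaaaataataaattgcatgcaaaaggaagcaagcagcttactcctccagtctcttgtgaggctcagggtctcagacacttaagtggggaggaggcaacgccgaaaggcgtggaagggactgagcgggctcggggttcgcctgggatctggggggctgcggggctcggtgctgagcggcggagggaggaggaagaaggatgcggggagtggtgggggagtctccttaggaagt
Tnfaip3: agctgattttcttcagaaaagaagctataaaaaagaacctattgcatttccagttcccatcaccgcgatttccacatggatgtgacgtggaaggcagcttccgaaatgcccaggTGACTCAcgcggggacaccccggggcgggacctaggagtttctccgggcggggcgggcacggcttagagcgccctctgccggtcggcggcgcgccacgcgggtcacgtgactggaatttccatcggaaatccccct
Cd3d: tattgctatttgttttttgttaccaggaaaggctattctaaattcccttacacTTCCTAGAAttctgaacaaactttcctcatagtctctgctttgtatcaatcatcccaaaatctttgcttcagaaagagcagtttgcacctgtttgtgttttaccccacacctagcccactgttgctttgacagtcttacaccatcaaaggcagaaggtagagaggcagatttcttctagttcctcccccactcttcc
Nsmce1: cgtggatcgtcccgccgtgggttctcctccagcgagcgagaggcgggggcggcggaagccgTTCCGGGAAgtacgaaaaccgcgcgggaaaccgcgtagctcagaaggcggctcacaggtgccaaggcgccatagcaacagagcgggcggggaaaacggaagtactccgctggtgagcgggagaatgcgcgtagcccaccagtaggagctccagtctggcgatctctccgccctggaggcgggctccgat

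A search of both strands for 5 motifs in the 300-base promoter window, 250 bases before to 50 after the start, covered the 360 promoters of 320 genes that fell in a control-only anchor. The FOXO letters TGTTTAC were in 16 of these promoters, 4.44% (2.56 to 7.12%). They were in 2.51% of 3742 promoters at anchors of loops of both controls and 3.01% of all 21263 promoters in the table. The STAT letters TTCNNNGAA were in 9.44% (6.63 to 12.9%), against 7.0% and 7.69% in those sets. The AP-1 letters TGANTCA were in 4.17% (2.35 to 6.78%), against 4.09% and 6.99%. The RUNX letters TGTGGTT were in 3.89% (2.14 to 6.44%), against 3.77% and 4.71%. The ETS letters CCGGAAG were in 15.3% (11.7 to 19.4%), against 20.7% at anchors of loops of both controls and 11.6% of all promoters. Matches of different motifs were counted separately and may overlap, and a match is a description of letters.

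The loops sat close to the listing limit. Their contacts ran from 20 to 63 in the upstream-deletion control, with a median of 23, and from 20 to 55 in the WT control, also with a median of 23. The 39676 loops listed in all 4 libraries of the rule had medians of 33 contacts in the upstream-deletion control and 38 in the WT control. Of the control-only loops, 554 (30.6%) had exactly 20 contacts in the lower control, 1520 (84.0%) had 20 to 24, 290 had at least 25 in both controls and 44 had at least 30. Just outside the rule lay 558 loops of both controls whose higher IL-2 count was 20, with median control counts of 23 in the upstream deletion and 24 in WT, close to those of the members. A further 791 loops of both controls were listed in the upstream-deletion IL-2 library but not in that of WT, and 5881 in the WT IL-2 library but not in that of the upstream deletion. For comparison, 6662 loops went the other way, listed in both IL-2 libraries and in neither control, which was 11.8% of the 56302 loops of both IL-2 libraries. The limit of 20 contacts was not scaled for depth, and these libraries differed in depth. Their scale factors for loops were 1.24 with IL-2 and 1.06 in the control of WT, and 0.968 and 0.925 in the upstream deletion. The part of depth in these unequal counts was not tested.

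Where an unlisted pair has at most 19 contacts, a member has a lower bound on its scaled change. The bound reached 1.5-fold in both genotypes for 150 loops and 2-fold for 6. It was computed from the control counts that chose the loops, and it was at least 1-fold for all 1810. It is thus a description of the rule, and it leaves out counting error in those counts. These bounds hold only where an unlisted pair was below the limit. A pair also goes unlisted when an anchor is no peak, and 1127 members (62.3%) had both anchors listed with some other partner in both IL-2 libraries. Of the 150 loops with a bound of 1.5-fold, 91 had all anchors listed. An IL-2 library of the rule listed another pair within 1 bin at both ends for 1340 members (74.0%) and none for 470 (26%). Of all loops of both controls with 20 to 24 contacts in the lower control, 88.6% had such a pair.

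The intron-deletion libraries played no part in choosing the loops. Its IL-2 library listed 867 of the 1810 loops (47.9%, exact binomial interval 45.6 to 50.2%), against 86.3% of all loops of both controls. Its control library listed 391 (21.6%, 19.7 to 23.6%), against 64.2%. Both of its libraries listed 336 members (18.6%), the IL-2 library alone 531 (29.3%), the control library alone 55 (3.04%) and neither 888 (49.1%). The IL-2 library is the deeper of this pair. Members are therefore set beside all loops of both controls, members included, at like control counts in the same library. Members were also chosen as unlisted in both IL-2 libraries of the rule, so like control counts do not make the sets alike. The part of that choice in the lower shares was not tested. Among loops with 20 to 24 contacts in the lower control, the intron-deletion IL-2 library listed 44.5% of members and 71.3% of all loops of both controls. With 25 to 29 contacts it listed 64.2% (57.9 to 70.2%) of members and 86.3% of all loops of both controls. The control library listed 18.1% of members and 35.4% of all loops in the 20 to 24 range, and 35.8% (29.8 to 42.1%) and 56.6% in the 25 to 29 range. Within each of these ranges the median lower count was 1 contact lower in members, 21 and 26 beside 22 and 27. The intervals of the shares did not overlap, but they take loops as independent, which neighbouring loops are not, so this is no test. From 30 contacts up, with 44 members, the shares were 75% and 96.9% in the IL-2 library and 63.6% and 87.8% in the control, but there the members had a median lower count of 31 and all loops of both controls 41, so the counts were not alike.

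**Figure D1:**
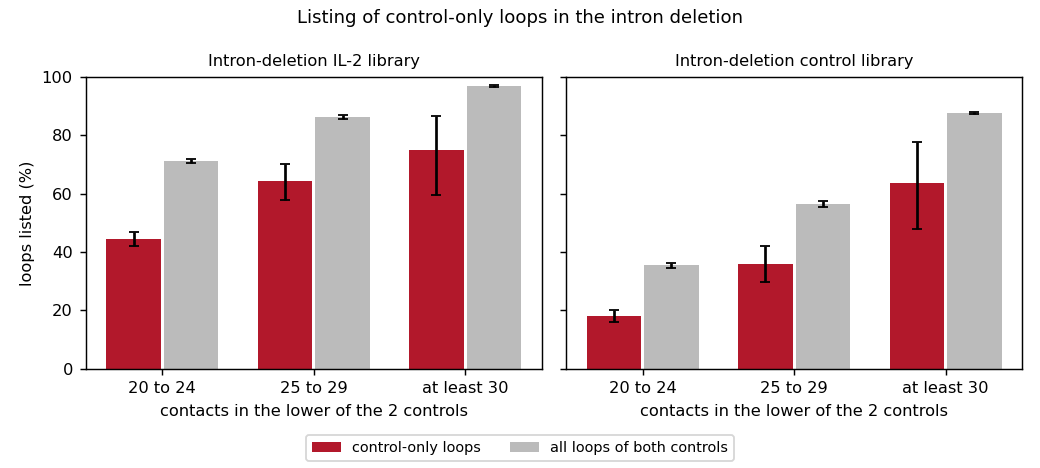
Share of loops listed in the intron-deletion IL-2 library (left) and control library (right), in percent, for control-only loops (red) and all loops of both controls (grey), by the contacts in the lower of the WT and upstream-deletion controls; bars run from 0 and error bars are exact 95% binomial intervals. In the 20 to 24 range 44.5% of control-only loops and 71.3% of all loops of both controls were listed in the IL-2 library, and the red bar is the lower one in each other pair; from 30 contacts up the sets differ in count.

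A change with IL-2 in the intron deletion has a value for the 336 members listed in both of its libraries. Each had at least 20 contacts also in the shallower control of the pair, and the 531 listed with IL-2 alone have no ratio, so the values describe these 336 and not all members. Their contacts summed to 11532 with IL-2 and 9283 in the control, a scaled ratio of 0.877 (0.854 to 0.902), while all 36958 loops of this pair of libraries gave 1.0. On the log2 scale the median member was at -0.24 (-0.30 to -0.17), with 242 of 336 below 0 (72.0%), beside 53.5% of all loops of the pair. The ratio was below that of other loops at each level of control contacts. At 20 to 24 control contacts it was 0.921 for members and 1.06 for loops of both controls, at 25 to 29 it was 0.860 and 1.01, and at 30 or more it was 0.847 and 0.999. The intervals of members and of loops of both controls did not overlap at any of these levels. They cover the counting error of the sums and not the spread between loops, so this is no test. All sets passed the same limit in the same libraries, with 1 library on each side. Their contacts need not be alike within a level, and the top level has no upper end. Members had also been chosen as unlisted in both IL-2 libraries of the rule. The part of that choice, and of counting error in the control, in the lower ratios was not tested.

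**Figure D2:**
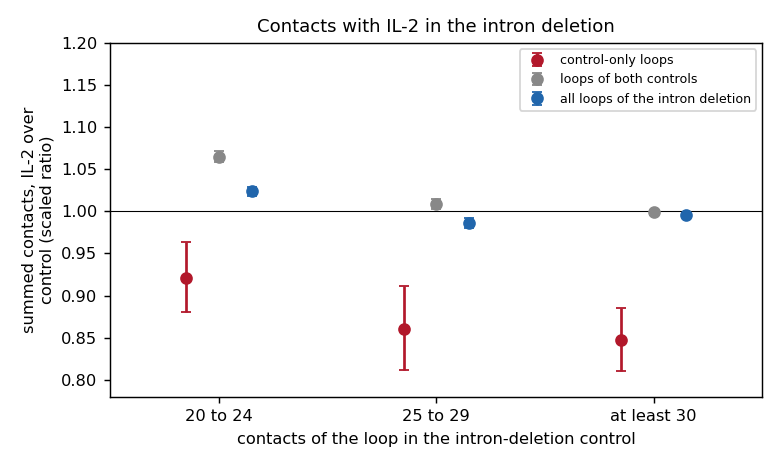
Scaled ratio of summed contacts, IL-2 over control, in the intron deletion (vertical axis, starting at 0.78) by the contacts of the loop in the intron-deletion control, for control-only loops (red), loops of both controls (grey) and all loops listed in both libraries (blue); bars are 95% counting intervals. Control-only loops sit at 0.921, 0.860 and 0.847, below the other sets at each level.

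The 1810 loops had 2867 distinct anchor bins. Their coverage in WT and in the upstream deletion comes from the contrast that chose the loops, so it is given as a description. In the upstream deletion the median anchor was at -0.21 (log2, scaled, IL-2 over control) over 2218 bins listed in both libraries, and 227 of them (10.2%) were at least 1.5-fold lower, where 2.12% of all listed bins were. In WT the median was -0.19 over 2445 bins, and 131 (5.36%) were at least 1.5-fold lower, where 1.31% of all listed bins were. In the intron deletion, which the rule did not use, the median over 2150 bins was -0.05 (-0.05 to -0.04), with 68.2% of bins below 0 and none 1.5-fold lower, where 0.00462% of all listed bins, a single bin, passed that fold. All bins of this pair of libraries had a median of 0.00, with 50.7% below 0. Of 1922 member anchors listed in all 6 libraries, 1504 (78.3%) were below 0 in both the upstream deletion and WT, the contrast that chose the loops. In all 3 genotypes 1136 (59.1%) were below 0 and 157 (8.17%) above 0. These shares were not taken over all bins, so no agreement between genotypes is read from them. At least 1.5-fold lower in both the upstream deletion and WT were 92 of these anchors (4.79%), where 0.953% of all bins of the 6 libraries were. In the intron deletion those 92 lay between -0.34 and -0.01, with a median of -0.16. The 177 bins of any loops that passed the same fold in both genotypes, those 92 included, had an intron-deletion median of -0.18, with 97.7% below 0. The bins outside the 92 were not taken alone, so these values are not shown to be particular to the control-only loops.

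**Figure D3:**
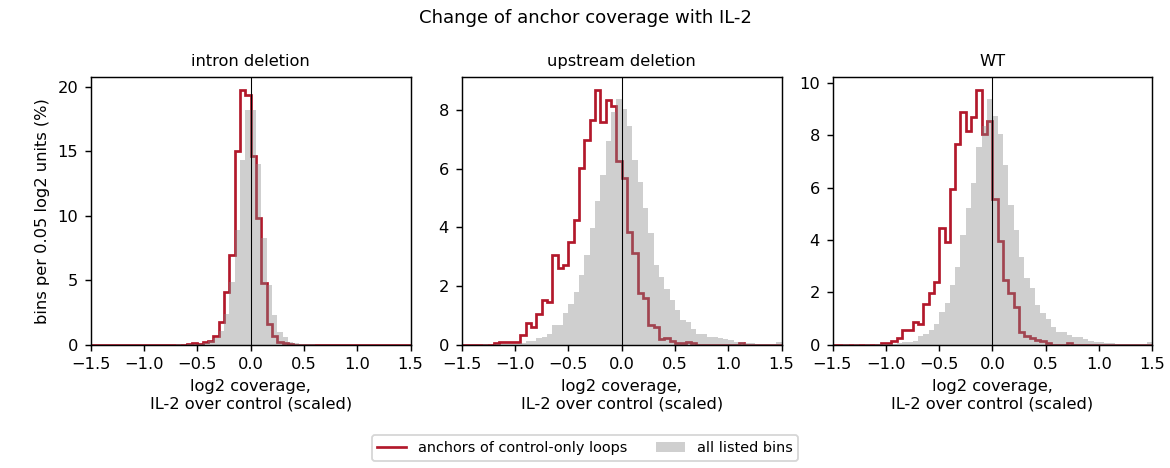
Distribution of the scaled log2 coverage change, IL-2 over control, of anchors of control-only loops (red line) and all bins listed in both libraries (grey), in percent of bins per 0.05 log2 units, for the intron deletion, the upstream deletion and WT. The red medians are -0.05, -0.21 and -0.19; the intron-deletion distribution is narrow, and the other panels show the contrast that chose the loops.

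Gene ends were rarer at these loops. Both anchors held a gene end in 1.88% of members and 3.80% of loops of both controls, exactly 1 anchor did in 20.4% of members and 27.5% of those loops, and neither did in 77.7% and 68.7%. Both anchors lay in the same protein-coding gene in 37.5% of members and 33.5% of loops of both controls. The median distance between anchors was 17 kb in members and 13 kb in loops of both controls, and 5.75% of members spanned 100 kb or more, beside 2.98%. The longest spanned 526 kb. The coverage of the anchors was also lower, with a median over loops of 1650 reads in members and 2215 in loops of both controls, taken as the geometric mean of both anchors in the WT control. The part of coverage or count in the other differences was not tested.

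Joining members whose anchors lay within 20 kb gave 632 loci, of which 343 held 1 loop. The same joining put the 48158 loops of both controls in 2103 loci, of which 446 held 1 loop. A set of 96 loci with at least 5 loops held 982 members, and the 10 largest held 266. In all, 895 protein-coding genes had a member anchor in the gene or at its end, 563 of them with 1 member and 80 with at least 5.

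The largest locus, chr15:66779001-66900000, held 40 loops around Sla, Tg and Ccn4. Sla encodes SLAP, an adaptor that lowers T cell receptor levels and signalling, and it lies inside the span of Tg, the thyroglobulin gene, so its 36 loops cannot be told apart from those of Tg. They had 20 to 30 contacts in the upstream-deletion control and 20 to 38 in the WT control. The intron-deletion IL-2 library listed 6 of them, with 21 to 28 contacts, and its control listed none. The bin with most of these loops had 2728 reads with IL-2 and 1987 in the control of the intron deletion, a scaled change of -0.08 (-0.16 to 0.01). In the upstream deletion it had 2603 reads with IL-2 and 3391 in the control (-0.39), and in WT 3348 with IL-2 and 3579 in the control (-0.30).

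Tnfaip3 at chr10:19000910-19015410 had 18 loops, with 20 to 38 contacts in the upstream-deletion control and 20 to 37 in the WT control. Many were long, with a median span of 122.5 kb and up to 179 kb, and ran from the start of the gene to bins between chr10:19165001 and chr10:19194000. The loop to the bin at chr10:19165001 had 29 contacts with IL-2 and 21 in the control of the intron deletion, 38 in the upstream-deletion control and 28 in the WT control. The loop to chr10:19185001 had 43 contacts with IL-2 and 21 in the control of the intron deletion, 26 in the upstream-deletion control and 22 in the WT control. Both of these far loops were listed in both intron-deletion libraries, and of all 18 loops 11 were listed with IL-2 and 8 in the control. The bin with most loops, next to the promoter bin, was at -0.10 (-0.16 to -0.05) in the intron deletion, -0.61 in the upstream deletion and -0.59 in WT.

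Arhgef3 at chr14:27114461-27403916, which encodes a guanine nucleotide exchange factor, had 21 loops. The intron deletion listed 12 of them with IL-2, at 20 to 34 contacts, and 4 in the control, at 20 to 26. Its promoter bin was at -0.25 (-0.32 to -0.17) in the intron deletion, the lowest value among the bins of the most-looped genes there, at -0.61 in the upstream deletion and at -0.43 in WT. Fam53b, with 16 loops, had the lowest values in the other genotypes, -0.91 in the upstream deletion and -0.84 in WT, and -0.16 (-0.27 to -0.05) in the intron deletion. Tagap, a GTPase-activating protein gene named for its induction by T cell activation, had 16 loops, and Spn, which encodes the sialophorin CD43, had 13. Their most-looped bins were at -0.07 (-0.16 to 0.01) and -0.21 (-0.31 to -0.10) in the intron deletion.

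Genes of transcription factors with roles in lymphocytes were among the 20 genes with most loops. Bach2, which encodes a repressor that restrains effector differentiation, had 16 loops at 20 to 27 contacts in the upstream-deletion control and 20 to 31 in the WT control. The intron deletion listed 13 of them with IL-2 and 3 in the control. The most-looped Bach2 bin, an anchor of 2 of the 16 loops, was at 0.05 (-0.03 to 0.13) there, at -0.43 in the upstream deletion and at -0.40 in WT. The 190 loops of Bach2 listed in all 6 libraries had a scaled contact ratio of 1.06 (1.02 to 1.09) in the intron deletion. It was 0.936 (0.907 to 0.967) in the upstream deletion and 0.976 (0.946 to 1.01) in WT. Ikzf3, the gene of the Ikaros-family factor Aiolos, had 12 loops, and its most-looped bin was at -0.05 (-0.17 to 0.08) in the intron deletion. Stat4, whose product carries IL-12 signals, had 9 loops, and its bin was at 0.01 (-0.08 to 0.10). These 3 bins had intervals that included 0 in the intron deletion.

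The other genes of the 20 were Gm8369 (17), Gramd3 (10), the Rap exchange factor gene Rapgef1 (10), the actin regulator gene Evl (10), Fam78a (10), the galactosyltransferase gene B4galt1 (9), Akna (9), Cd3d (9), Nsmce1 (9) and Scml4 (9), and Irf2bp2, Ets1 and Ripor2 followed with 9 loops each. Over the 19 most-looped bins of the 20 genes, Sla and Tg sharing 1, the intron-deletion change had a median of -0.08 and ran from -0.25 to 0.05. It was below 0 in 15 bins, with an interval wholly below 0 in 9 and wholly above 0 in none. The share of all bins with such intervals was not taken, and coverage in this pair of libraries had 3.26 times the counting variance. In the upstream deletion and in WT 18 of the 19 were below 0, which the choice of loops favours.

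**Figure D4:**
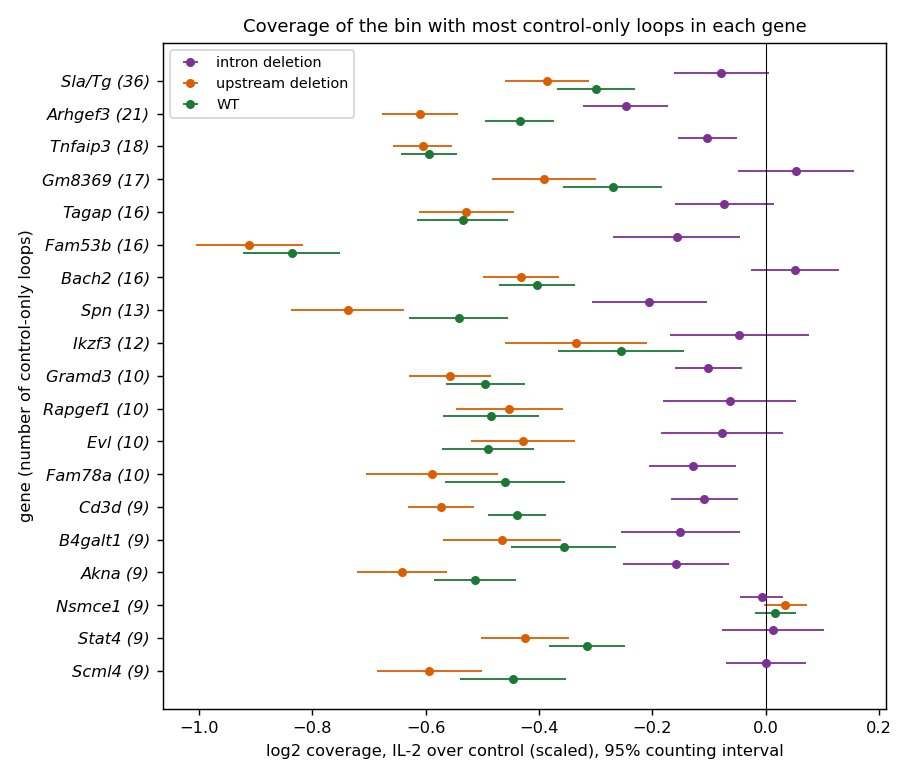
Scaled log2 coverage change with IL-2 of the bin that anchors most control-only loops in each of the 20 genes with most such loops (Sla and Tg share a bin), for the intron deletion (purple), the upstream deletion (orange) and WT (green); points are single libraries over single libraries and bars are 95% counting intervals. Purple points run from -0.25 to 0.05, and at Nsmce1 all 3 genotypes lie near 0.

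Nsmce1 was the exception among these bins. Its promoter bin, whose sequence is shown above, had 13712 reads with IL-2 and 9505 in the control of the intron deletion (-0.01, -0.04 to 0.03). It had 11418 with IL-2 and 11118 in the control of the upstream deletion (0.03), and 13100 with IL-2 and 11247 in the control of WT (0.02). The 168 loops of Nsmce1 listed in all 6 libraries had scaled ratios of 1.08 (1.05 to 1.11) in the intron deletion, 1.15 (1.12 to 1.18) in the upstream deletion and 1.15 (1.12 to 1.19) in WT. Its 9 control-only loops thus left the list in a gene whose shared contacts, summed, were higher with IL-2. They spanned 22 to 116 kb, and 3 of them ended in Il21r, the IL-21 receptor gene. The loop from the Nsmce1 promoter bin to Il21r had 25 contacts in the intron-deletion control and was unlisted with IL-2 there, with 32 contacts in the upstream-deletion control and 31 in the WT control.

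Scml4, which encodes a protein of the Polycomb-related Scm family, differed in another way. All 9 of its loops were listed in both intron-deletion libraries, at 34 to 95 contacts with IL-2 and 20 to 57 in the control, while they had 23 to 38 in the upstream-deletion control and 20 to 32 in the WT control. The highest of them, between chr10:42889001 and chr10:42896001, had 95 contacts with IL-2 and 57 in the control of the intron deletion, beside 33 in the upstream-deletion control and 25 in the WT control. For that loop the intron-deletion control, the library with the fewest contacts in all, was above both controls of the rule. The most-looped Scml4 bin was at 0.00 (-0.07 to 0.07) in the intron deletion, beside -0.59 in the upstream deletion and -0.45 in WT.

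The other large loci lay beside genes named here by their position. A locus of 37 loops spanned 335 kb from Irf2bp2, a transcriptional corepressor gene, and its most-looped bin, which lies in no gene 272 kb away, was at -0.21 (-0.28 to -0.13) in the intron deletion. Tcf7, the gene of the factor TCF1, shared a locus of 21 loops with Skp1. There the intron deletion listed 18 loops with IL-2 and 13 in the control, and the most-looped bin, 57.6 kb from Tcf7, was at -0.19 (-0.25 to -0.12) in the intron deletion, -0.75 in the upstream deletion and -0.57 in WT. The locus beside Btg2, an antiproliferative gene, held 20 loops, of which 14 were listed with IL-2 and 10 in the control of the intron deletion. Its most-looped bin was at -0.21 (-0.29 to -0.14) in the intron deletion, -0.74 in the upstream deletion and -0.80 in WT. The most-looped bins of the 18 loops around Arhgap45, Cnn2 and Gpx4 and of the 25 around Spn, Septin1 and Tbc1d10b were both at -0.23 in the intron deletion. A locus of 30 loops held Gm8369, Ms4a4b and Ms4a6c, and it was the exception, with a most-looped bin, in Ms4a4b, at 0.14 (0.08 to 0.21) in the intron deletion, -0.39 in the upstream deletion and -0.29 in WT. Over the loops of these 10 loci listed in all 6 libraries, the intron-deletion ratio had an interval below 1 in 4 loci and above 1 in 1.

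The loop with the largest count in the lower of its controls lay inside Hip1r, a gene of clathrin and actin binding, between chr5:123975001 and chr5:123980001. It had 29 contacts with IL-2 and 28 in the control of the intron deletion, 63 in the upstream-deletion control and 54 in the WT control. Neither anchor was listed with any partner in the IL-2 libraries of the upstream deletion and WT, so contacts below 20 and the loss of a peak cannot be told apart there. The same holds for a pair of loops 5 and 6 kb long from chr2:128382001 in Morrbid, a long non-coding RNA that in mice controls the lifespan of short-lived myeloid cells. The 6 kb loop had 51 contacts with IL-2 and 54 in the control of the intron deletion, 42 in the upstream-deletion control and 47 in the WT control. The 5 kb loop had 50 with IL-2 and 51 in the control of the intron deletion, 37 in the upstream-deletion control and 55 in the WT control. Scaled for the greater depth of the IL-2 library, the intron-deletion ratio of the 6 kb Morrbid loop was 0.667 (0.446 to 0.997). That of the 5 kb loop was 0.692 (0.459 to 1.04). These were the lowest of the ratios taken for named loops, and that of the Hip1r loop was 0.731 (0.420 to 1.28).

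Loops with all anchors listed include one of 19 kb near Tnfaip3, with 46 contacts with IL-2 and 30 in the control of the intron deletion, 41 in the upstream-deletion control and 42 in the WT control. Another lay inside Stat3, which encodes a cytokine-activated factor, with 23 contacts in the intron-deletion IL-2 library and no listing in its control, 36 in the upstream-deletion control and 38 in the WT control. Both of these loops had over 35 contacts in each control of the rule. The remaining loops of this group lacked a listed anchor in at least 1 of those IL-2 libraries. A loop of 5 kb beside Batf, an AP-1 family factor gene, had 34 contacts in the upstream-deletion control and 41 in the WT control and was listed in neither intron-deletion library. A loop beside Slc6a19, an amino acid transporter gene, had 70 contacts with IL-2 and 49 in the control of the intron deletion, 39 in the upstream-deletion control and 38 in the WT control. A loop of 27 kb between Tcf7 and Vdac1 had 60 with IL-2 and 45 in the control of the intron deletion, 36 in the upstream-deletion control and 42 in the WT control. The last of these high loops were at Washc1, a WASH complex gene, with 39 contacts in the upstream-deletion control and 45 in the WT control, and inside Arhgef3, with 34 in the upstream-deletion control and 37 in the WT control. Scaled for depth, the intron-deletion ratio was 1.08 (0.669 to 1.78) for the 19 kb loop near Tnfaip3 and 1.01 (0.690 to 1.48) beside Slc6a19. It was 0.942 (0.629 to 1.42) between Tcf7 and Vdac1 and 0.741 (0.382 to 1.44) at Washc1.

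**Figure D5:**
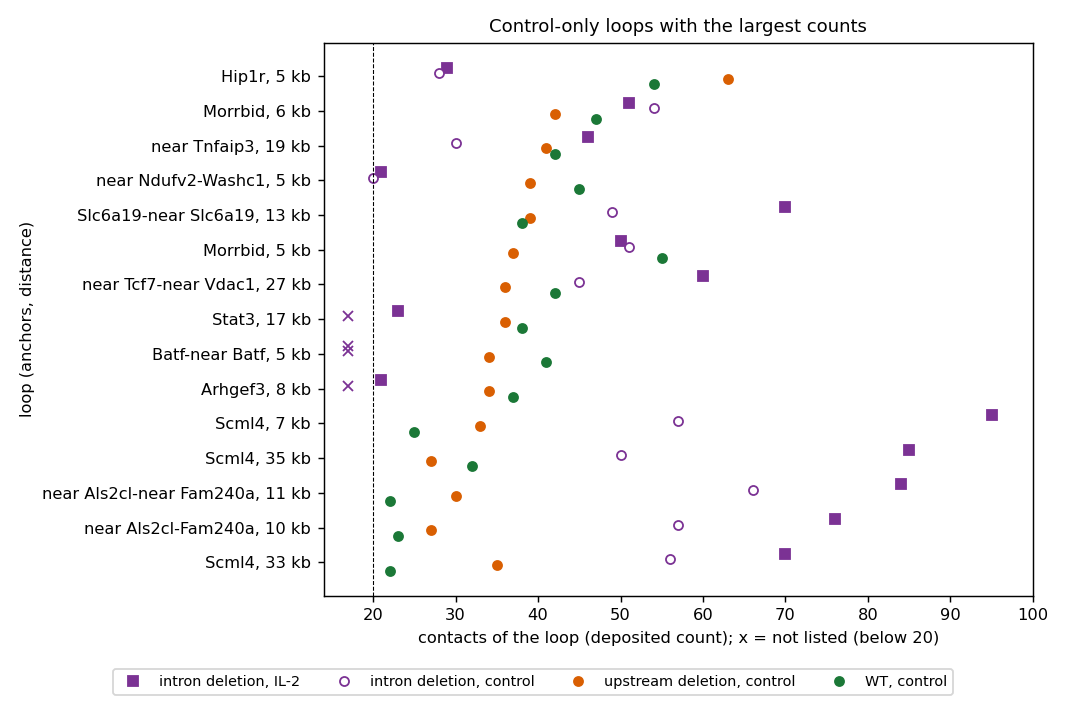
Deposited contacts of the 10 control-only loops with the largest lower control count (top) and the 5 with the largest intron-deletion IL-2 count (bottom), each row a loop named by the gene at or nearest its anchors and its span, for the intron deletion with IL-2 (squares), its control (open circles), the upstream-deletion control (orange) and the WT control (green); crosses mark unlisted pairs and the dashed line the limit of 20. The loop in Hip1r has 63 contacts in the upstream-deletion control and 54 in the WT control, and the Scml4 and Als2cl-Fam240a loops have more contacts in the intron deletion than in either control of the rule.

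The 55 members listed in the intron-deletion control and not in its IL-2 library had 20 to 31 contacts there, with a median of 21. In the range of 20 to 24 contacts in the lower control of the rule, 3.03% of members (2.22 to 4.02%) and 2.43% of all loops of both controls were listed in this way, the second share lying inside the interval of the first. From 25 contacts up the shares were 3.10% (1.43 to 5.81%) and 0.777%, and over all counts 3.04% (2.30 to 3.94%) and 1.32%. There the second share lay below the interval of the first, but the counts of the sets need not be alike. The highest was a 76 kb loop from Dgka to the bin of Ormdl2 and Sarnp with 31 contacts, and a 12 kb loop inside Dgka had 28. Dgka encodes the diacylglycerol kinase alpha, which limits T cell receptor signalling. The gene has 2 promoter bins with control-only loops in the promoter table. The one with 3 loops had 2670 reads with IL-2 and 2124 in the control of the intron deletion (-0.21, -0.29 to -0.12), 1854 with IL-2 and 3281 in the control of the upstream deletion (-0.83), and 2598 with IL-2 and 3492 in the control of WT (-0.63). The one with 2 loops, the anchor of the 76 kb loop, was at -0.04 (-0.09 to 0.01) in the intron deletion, -0.60 in the upstream deletion and -0.41 in WT. Next came a 65 kb loop from Myb with 29 contacts, one between Rps26 and the Ikaros-family gene Ikzf4 and one inside Bcl11b, a gene of T cell identity, with 27 each. The rest of the 10 highest were loops in Gtf2i, Pou2f2, Ssh2 and Septin9 and the Nsmce1 to Il21r loop, at 24 or 25 contacts.

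At Il2ra, the gene that the deletions target, few members were found. A 41 kb loop inside Il2ra, between chr2:11644001 and chr2:11685001, had 25 contacts in the upstream-deletion control and 26 in the WT control. A 21 kb loop from Il2ra to Il15ra, the gene of the IL-15 receptor alpha chain, had 22 in each. A 103 kb loop from Rbm17 to Il15ra over the gene had 20 in the upstream-deletion control and 28 in the WT control. None of these 3 was listed in either intron-deletion library, and all their anchors were listed in both IL-2 libraries of the rule. The deleted coordinates are not given. For the loops anchored in Il2ra, low contacts and a deleted anchor thus cannot be told apart in the intron deletion.

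Of 3606 protein-coding genes with a gene end at an anchor of a loop of both controls, 377 (10.5%) had one at a control-only anchor, and the gene lists are set beside that share. The T cell identity and receptor signalling list had 7 of 21 measured genes there, among them Cd3d, Cd3e, Cd3g, Cd27, Lat and Runx3, and the 3 CD3 genes are also those of the CD8 T cell markers (3 of 7). The activation, AP-1 and checkpoint list had 6 of 24, Batf, Irf4, Nfkbia, Tnfaip3, Rel and Dusp2. The interferon response list had 5 of 13, among them Irf9, Gbp3, Igtp and Irgm1, and the cytotoxic effector and chemokine list 4 of 9, Nkg7, Ccl4, Ccl5 and Cxcr6. The quiescence and FOXO1 target list had 4 of 20, Sesn3, Klf13, Satb1 and Slfn2, and the list of PI3K and mTORC1 brakes and autophagy or lysosome genes 4 of 11, Inpp4b, Sesn3, Map1lc3b and Sqstm1. The IL-2 and STAT5 target list had 3 of 21, Lta, Pim1 and Mcl1, a share of 14.3%. A control-only loop at a gene end does not give the direction of the gene's other loops. Over loops listed in all 6 libraries, Lta had scaled contact ratios of 1.36 in WT and 1.37 in the upstream deletion. Those of Pim1 were 1.26 in both genotypes, and those of Mcl1 were 0.845 in WT and 0.895 in the upstream deletion. The growth, Myc and nutrient list had 0 of 8. Among markers of other cells 1 of 3 myeloid genes (Spi1) and none of 1 B cell, 1 NK and 1 regulatory or CD4 T cell gene had one. The number of loops per gene was not held equal between the lists and all genes.

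Among the CD3 genes, whose products form the signalling part of the T cell receptor, the Cd3d promoter bin had 5518 reads with IL-2 and 4104 in the control of the intron deletion, a scaled change of -0.11 (-0.17 to -0.05). It had 4060 with IL-2 and 6022 in the control of the upstream deletion (-0.57), and 5800 with IL-2 and 6829 in the control of WT (-0.44). The Cd3g promoter bin beside it was at -0.14 (-0.21 to -0.06) in the intron deletion, and the Cd3e bin, with fewer reads, at 0.17 (-0.06 to 0.41). Sesn3, the gene of a stress-induced inhibitor of mTORC1, had 6 loops, with 22 to 37 contacts in the upstream-deletion control and 20 to 32 in the WT control, of which the intron deletion listed 1 with IL-2 and 2 in the control. Of these, 2 shared the bin of its gene end, which was at -0.20 (-0.30 to -0.10) there, -0.67 in the upstream deletion and -0.76 in WT. Nfkbia, which encodes the NF-kB inhibitor IkB-alpha, had 3 loops, and its bin was at -0.19 (-0.25 to -0.13) in the intron deletion. Satb1, a chromatin organiser gene, had 4 loops, none listed in the intron deletion. An anchor bin inside the gene, at the other end of the loop to its gene end, was at 0.24 (0.05 to 0.44) in the intron deletion, 0.20 in the upstream deletion and 0.28 in WT. Over 30 bins measured in the intron deletion, 1 for each list gene, 18 were below 0, with an interval below 0 in 11 and above 0 in 3. Here too the share of all bins with such intervals was not taken.

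The promoter bins of the sequences shown first had intron-deletion changes of -0.13 (-0.21 to -0.05) for Ripor2, -0.17 (-0.23 to -0.10) for Kdm2b and -0.12 (-0.16 to -0.07) for Tnfaip3. In the upstream deletion they were at -0.63, -0.71 and -0.45 in that order, and in WT at -0.44, -0.58 and -0.41.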

How the data were processed

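The 6 H3K27ac HiChIP libraries of CD8+ T cells were analysed, and 19 ChIP-seq samples of the series were not analysed here. The submitters' processing notes name HiC-Pro, CASAVA and Bowtie2 2.2.6 as tools and mm10 (GRCm38) as the build. The deposited tables hold, for pairs of 1 kb bins, the authors' whole-number contact counts and the read counts (coverage) of both bins, not normalised. The tables have no header; their layout is that of the loop caller FitHiChIP, with no version given in the sources used. Tests on the tables found no pair under 20 contacts or closer than 5 kb, both anchors flagged as peaks in every row, and empty p-value columns.

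Pairs were matched on both bins exactly. Counts were scaled by the median ratio over loops or bins listed in all 6 libraries. Changes are log2 ratios of IL-2 over control with exact binomial intervals, and medians have order-statistic intervals, all at 95%. None covers replicate spread, and those of shares and medians take loops or bins as independent. There is 1 library per genotype and treatment, so no p-value was computed. Genes came from RefSeq (GRCm38.p6), and a gene end is either annotated end. Functions were checked on simulated coverage. Genes and loops named are the 20 genes, 10 loci and 10 loops with most loops or contacts, the 10 highest loops listed in the intron-deletion control alone, the 5 highest in its IL-2 library, list genes with a gene end at a member anchor (some are not reported here), and Il2ra. Members, lists and rules were chosen with earlier results of these data known, and Dgka's promoter and the genes of printed promoters after their values were seen. Alternatives varied the matching, the minimum count, the genotypes in the rule, the scaling (edgeR 4.0.16 TMM, totals, none), the fold and the joining distance. Python 3.11.15, pandas 2.3.3, scipy 1.17.1 and R 4.3.3 were used.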

Additional observations from a re-analysis of the deposited data

Results flagged for a closer look

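At a locus of 30 control-only loops around Gm8369, Ms4a4b and Ms4a6c, the intron deletion went the opposite way to the upstream deletion and WT, each beyond its counting interval. The most-looped bin of the locus was at 0.14 (log2, 0.08 to 0.21) in the intron deletion, -0.39 in the upstream deletion and -0.29 in WT. The contacts of its 236 loops listed in all 6 libraries had scaled ratios of 1.06 (1.03 to 1.09) in the intron deletion, 0.801 in the upstream deletion and 0.845 in WT, and for the 137 such loops of Gm8369 itself the ratios were 1.05 (1.01 to 1.09) in the intron deletion, 0.817 in the upstream deletion and 0.837 in WT. The Nkg7 bin, in a gene of cytotoxic granules, was at 0.10 (0.02 to 0.18) in the intron deletion, -0.08 in the upstream deletion and -0.17 in WT. It anchored 1 control-only loop, with 20 contacts in the upstream-deletion control and 21 in the WT control. Coverage varied more than counting allows, with 3.26 times the counting variance in the intron-deletion pair, 32.4 in the upstream-deletion pair and 30.7 in the WT pair. The counting intervals of these bins are thus too narrow. The difference between genotypes was not tested at any of these, each rests on 1 library per side, and the rule chose the loops for the direction in the upstream deletion and WT.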

How the results depend on the processing

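All 65 alternative values were set against the main ones. Of these 28 stayed within the interval or 1.5 times, 34 moved and 3 reversed. The reversals came with no scaling, which leaves the depths in: 0.26 for intron-deletion contacts, 0.49 for its coverage and 0.0142 for WT coverage. The bound then held for 73 loops.

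The rule sets the count. It gave 470 loops with a pair within 1 bin counted as listed, 290 and 44 from 25 and 30 contacts, 12842 without WT and 10469 without the upstream deletion. Under these settings in that order, the intron-deletion IL-2 library listed 44.9%, 65.9%, 75%, 53.7% and 32.4%, and its control 19.6%, 40%, 63.6%, 23.0% and 11.1%. Its control listed 19.6% of members with both anchors listed in both IL-2 libraries, an alternative chosen after seeing the data, as was leaving out the 10 largest loci, which moved nothing. The intron-deletion contact change was -0.12 from 25 contacts and -0.15 without WT. Its coverage change was -0.0695 from 25 contacts, -0.0172 without WT, -0.0173 without the upstream deletion and -0.0415 with both anchors listed; the lower fold threshold tried gave 23 lower bins in place of 0. From 25 contacts the coverage change was -0.35 in the upstream deletion and -0.30 in WT, and with scaling by totals -0.24 and -0.22.

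The bound held for 830 loops at the lower fold tried and 6 at 2-fold. A gene end lay within 1 bin at 43.0% of members, and in the anchor bin itself at 16.6% of those from 25 contacts, where 22.3% of all members had one. The tolerance gave a median span of 20.5 kb. List genes with a member numbered 33 in the report, 60 with a gene end within 1 bin, and 10 with the gene end in the bin and members from 25 contacts. Direction held in every scaled setting. No paired analysis was possible because no result here comes from a test and the labels give no replicate numbers; IL-2 and control were compared within each genotype. Of the members, 84.0% had 20 to 24 contacts in the lower control, near the listing limit.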
